A study of Mus musculus with 4 samples.

Results

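Elf5, Cdx2, Eomes, Tfap2c and Hand1 are 5 genes for transcription factors of the trophoblast, the lineage that forms the fetal part of the placenta. They were taken as a named set, and the rule that picks their cytosines uses position and depth, not methylation. Each was described over a fixed stretch of the mouse build mm9: Elf5 over chr2:103248000-103298000, Cdx2 over chr5:148108000-148124000, Eomes over chr9:118383000-118399000, Tfap2c over chr2:172370000-172389000 and Hand1 over chr11:57638000-57650000. Inside these stretches 1275 cytosines of CpG sites had 5 or more calls in every library, of 2468166 such cytosines in all. They fell into 49 at Elf5, 262 at Cdx2, 373 at Eomes, 394 at Tfap2c and 197 at Hand1. In the later mouse build GRCm38.p6 the genes span 38892, 6350, 7947, 12945 and 3435 bases in the same order. Each stretch thus also holds flanking DNA, and levels and windows given for a gene are those of its stretch.

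Mouse embryonic stem (ES) cells without Naa10, the X-linked gene of the catalytic subunit of an N-terminal acetyltransferase, were compared with wild-type (WT) cells. CpG methylation was read by reduced representation bisulfite sequencing, in which the enzyme MspI cuts DNA at CCGG and CpG-rich fragments are sequenced after unmethylated cytosines have been converted. There were 2 WT libraries and 2 Naa10-KO libraries. Both genotypes were grown in N2B27 medium with an inhibitor of Mek, an inhibitor of Gsk3 and LIF on irradiated feeder fibroblasts, and passed 5 times without feeders ahead of DNA extraction. The labels give neither the kind of Naa10 deletion nor the strain, sex or clones of the cells, nor whether libraries of 1 genotype are separate cultures, so p-values rest on a spread between libraries that may be technical. DNA methylation measures no expression, and the ES cell label could not be checked against expressed markers.

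Early embryos set the trophoblast apart from the cells that form the embryo proper. Cdx2 is a homeobox factor that specifies the trophoblast, Eomes a T-box factor needed by trophoblast stem cells, and Elf5 an ETS factor that acts with both in a reinforcing loop. Tfap2c is an AP-2 factor used by trophoblast and germ cells, and Hand1 a basic helix-loop-helix factor of trophoblast giant cells. The Elf5 promoter is the textbook case of a gene methylated in ES cells and unmethylated in trophoblast stem cells, whereas the CpG islands of developmental regulators are mostly unmethylated in both.

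RefSeq promoter sequences of GRCm38.p6, each from 250 bases before to 50 after a transcription start, were given for 3 of the 5 genes, Elf5, Cdx2 and Eomes. Because the files use mm9, each sequence was laid on the cytosines of its chromosome by the spacing of its CpG sites. That placed 1 of the 2 Elf5 starts, at chr2:103263975-103264274 on the plus strand, inside the Elf5 stretch. All 10 cytosines found there fell on CpG sites of the sequence, against 6 at the next best position. The other Elf5 start, Cdx2 and Eomes were not placed. The starts of 2 noncoding RNA genes that overlap members in GRCm38.p6 were placed too. These were Gm33408 over Eomes and Gm32915 at the end of Hand1 with the higher coordinates. Their sequences show the DNA that was read inside Eomes and Hand1. In GRCm38.p6 all 300 bases of the Gm33408 sequence lie inside Eomes, and 290 bases of the Gm32915 sequence lie inside Hand1. Letters are those of GRCm38.p6, positions are the placements in mm9, and capitals mark CpG sites measured in all 4 libraries.
Elf5, start 2, chr2:103263975-103264274, plus strand: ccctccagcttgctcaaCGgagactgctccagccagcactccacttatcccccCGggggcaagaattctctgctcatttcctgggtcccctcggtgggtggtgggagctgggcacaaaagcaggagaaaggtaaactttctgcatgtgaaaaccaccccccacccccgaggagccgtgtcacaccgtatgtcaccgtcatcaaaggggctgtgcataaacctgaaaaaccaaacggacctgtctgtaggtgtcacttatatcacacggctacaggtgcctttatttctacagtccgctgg
Gm33408, start 1, chr9:118387801-118388100, minus strand: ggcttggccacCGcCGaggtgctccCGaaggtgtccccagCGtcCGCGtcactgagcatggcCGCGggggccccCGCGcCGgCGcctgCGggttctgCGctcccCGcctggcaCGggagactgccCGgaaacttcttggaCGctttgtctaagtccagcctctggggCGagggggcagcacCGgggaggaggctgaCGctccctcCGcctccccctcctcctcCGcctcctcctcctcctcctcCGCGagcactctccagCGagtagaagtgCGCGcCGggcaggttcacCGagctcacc
Gm32915, start 1, chr11:57645360-57645659, plus strand: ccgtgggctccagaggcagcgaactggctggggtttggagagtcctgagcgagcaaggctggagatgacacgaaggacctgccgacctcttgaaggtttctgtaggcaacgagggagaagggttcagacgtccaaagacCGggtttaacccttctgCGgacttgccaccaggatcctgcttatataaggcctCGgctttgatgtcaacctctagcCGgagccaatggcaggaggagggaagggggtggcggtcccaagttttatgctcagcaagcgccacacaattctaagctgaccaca

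The Elf5 sequence holds 10 CpG sites in 300 bases, and only 2 of them were measured in every library. The Gm33408 sequence inside Eomes holds 30 CpG sites, all 30 of them measured. The Gm32915 sequence at Hand1 holds 13, of which 4 were measured. Over 32817 RefSeq mouse promoters of this length the median number of CpG sites was 7, and 58.6% had 10 or fewer.

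The libraries held 68586396 to 79540412 calls, with a median of 21 to 25 calls per shared cytosine, and 21 to 36 in the 5 stretches. Over all shared cytosines WT libraries averaged 33.0% methylation each, KO replicate 1 averaged 11.4% and KO replicate 2 averaged 7.69%. Every fall described here therefore stands within a fall over most of the methylated genome, and the KO libraries differed from each other as well. Of 155252 windows of 1 kb tested, 79.9% were called lower in KO cells and 0.00386% higher. A call needed an adjusted p below 0.05 in the quasi-likelihood test of edgeR, with Benjamini-Hochberg adjustment over all windows, and a difference of at least 10 percentage points.

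Elf5 was the highly methylated gene of the set in WT cells, and it lost most of its methylation in KO cells. The mean level over its 49 cytosines was 83.1% and 84.4% in the WT libraries, against 31.5% and 22.2% in the KO libraries. The groups did not overlap, and KO cells (26.8% ± 6.58, SD, n = 2) kept 32.1% of the WT level (83.7% ± 0.893, SD, n = 2). The difference was -56.9 points. An exact permutation test (two-sided, 2 against 2 libraries) cannot go below p = 0.333, and it gave that value here and for each of the other 4 genes.

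Hand1 and Tfap2c were intermediate on average. At Hand1 the WT libraries stood at 15.4% and 14.2% and the KO libraries at 6.85% and 4.51%, a difference of -9.09 points. At Tfap2c they stood at 11.9% and 11.4% in WT and at 3.87% and 3.41% in KO cells, a difference of -8.02 points. At both genes each KO library was below each WT library.

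Cdx2 and Eomes were nearly unmethylated in both genotypes. Cdx2 had 3.59% and 3.21% in WT and 1.85% and 0.770% in KO libraries, a difference of -2.09 points. Eomes had 2.64% and 2.65% in WT and 1.30% and 1.33% in KO libraries, a difference of -1.34 points. The KO libraries again lay below the WT libraries, by little in points, and kept 38.5% of the WT level at Cdx2 and 49.5% at Eomes. With 10 or more calls required the Cdx2 difference was -1.14 points, and with 20 or more the Eomes difference was -0.491 points.

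In WT cells the order from high to low was Elf5, Hand1, Tfap2c, Cdx2 and Eomes, and no library of 1 gene crossed that of its neighbour. In KO cells the order of the first 3 was kept, whereas Cdx2 and Eomes overlapped. These means depend on which CpG sites MspI fragments reach, and the 5 genes differ in that.

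**Figure D1:**
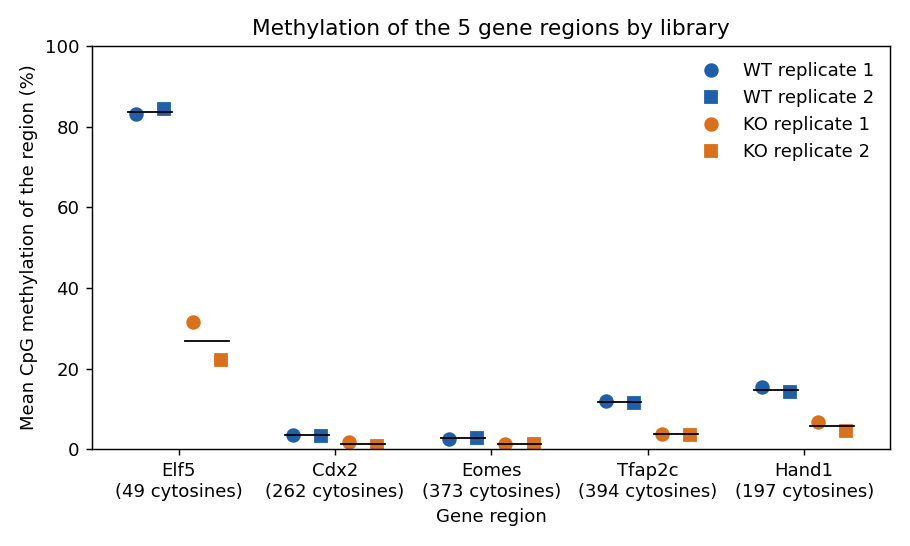
Mean methylation level (percent, vertical axis) over the measured cytosines of each gene's stretch, with 1 point per library and a short line at each group mean of 2 libraries. The Elf5 WT libraries sit at 83.1% and 84.4%, and every KO library is below both WT libraries at all 5 genes.

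Single cytosines showed how far the genes differ in make-up. At Elf5 none of the 49 cytosines was under 10% in WT cells and 46 were at or above 50%. The counts under 10% were 246 of 262 at Cdx2, 354 of 373 at Eomes, 332 of 394 at Tfap2c and 98 of 197 at Hand1. The counts at or above 50% were 7, 5, 45 and 9 in the same order of genes. So Tfap2c held many cytosines at either end, whereas Hand1 held 49 between 20 and 80%.

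No methylated call at all was seen in any library at 150 cytosines of Cdx2, 196 of Eomes, 155 of Tfap2c and 14 of Hand1, and at none of Elf5. Summed over those cytosines, each library had at least 2995 calls at Cdx2, 4941 at Eomes, 3433 at Tfap2c and 267 at Hand1. A count of 0 in these allows levels of up to 0.1002%, 0.0607%, 0.0874% and 1.12%, with a floor of 3 counts that covers counting error only. Since the cytosines were picked for having no methylated call, these limits describe the depth.

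Of the 1275 cytosines 117 were called lower in KO cells and 0 higher, where 34.7% of all 2468166 cytosines were called lower and 0.00146% higher. At an unadjusted p below 0.05 no member was higher either, and 251 of all cytosines were. Limma without centring called 123 members lower and 0 higher. By gene, 45 cytosines were called lower at Elf5, 46 at Tfap2c, 18 at Hand1, 6 at Cdx2 and 2 at Eomes. A share of 9.18% for the set is under the background, and most members were under 10% in WT cells. Without WT replicate 1 the count for the set was 70, with 3 at Hand1 and 0 at Eomes.

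Counting only the order of the libraries, the higher KO library was under the lower WT library at all 49 Elf5 cytosines. The same held for 105 of 197 at Hand1, 94 of 394 at Tfap2c, 37 of 373 at Eomes and 23 of 262 at Cdx2, against 44.6% of all cytosines. The reverse order held for 23 of the 1275, or 1.80%, against 0.442% of all cytosines: 10 at Eomes, 6 at Cdx2, 4 at Tfap2c, 3 at Hand1 and none at Elf5. Near 0, where most members lie, a few calls can set this order. No share was computed for cytosines of like WT level, so the 2 shares are not a like comparison. Neighbouring cytosines are read on the same fragments, so these are not independent counts.

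The KO libraries also differed from each other. KO replicate 1 was the higher one at 40 Elf5 cytosines and the lower one at 9, with corresponding counts of 95 and 51 at Hand1 and 49 and 17 at Cdx2. At Eomes the counts were 54 and 61, and at Tfap2c 74 and 64. Over the whole genome KO replicate 1 was the higher one, as at each of these genes but Eomes. What part that difference has in the results was not tested, and each value is given per library.

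**Figure D2:**
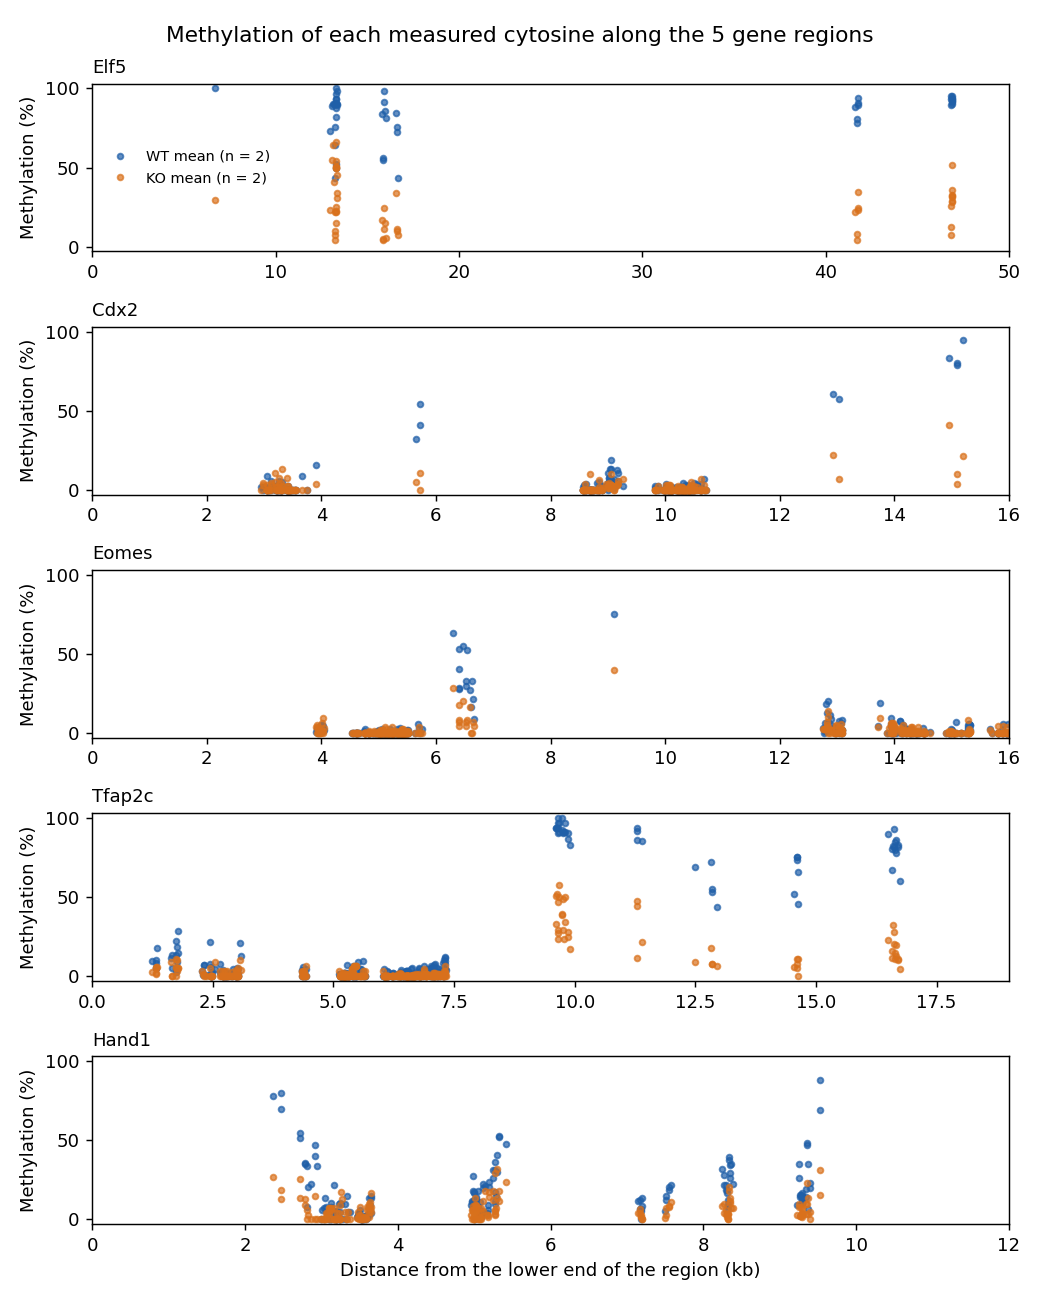
Methylation level (percent, vertical axis) of each measured cytosine along the 5 stretches, plotted against distance from the start of the stretch (kb), with group means of 2 libraries for WT and KO. Elf5 has no cytosine under 10% in WT cells, whereas Cdx2, Eomes and Tfap2c have long runs near 0 in both genotypes.

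By windows of 1 kb, 39 windows in the 5 stretches held the 3 cytosines a test needed, and another 6 held only 1. Of the 39, 16 were called lower in KO cells, 0 higher, and 23 were not called. At an unadjusted p below 0.05 no window was higher, and 25 were lower, and limma without centring called 16 lower and 0 higher. In 29 windows the KO libraries lay wholly below the WT libraries and in 2 wholly above, where 90.8% and 0.968% of all windows did. The 2 above were near 0: chr5:148110001 (Cdx2) with means of 1.15% in WT and 2.80% in KO cells, and chr9:118386001 (Eomes) with 1.26% and 1.55%. The 16 were 5 of 5 windows at Elf5, 5 of 12 at Tfap2c, 3 of 7 at Hand1, 2 of 7 at Cdx2 and 1 of 8 at Eomes, where 79.9% of all windows were called lower.

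A call needs a fall of 10 points, so the 19 member windows under 10% in WT cells could not be called lower, and calls are tied to the WT level by the rule. With no minimum difference 25 windows were called lower, 9 of them in addition to the 16. Every one of the 16 member windows that reached 20% in WT cells was called lower, as were 99.5% of such windows in the whole genome. Their KO level was at a median of 24.4% of the WT level, against 26.8% over the 121800 genome windows. The median WT level was 10.9% over the 39 member windows and 80.4% over all windows, and the median difference was -6.66 points against -53.6 points.

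Relative to the library-wide shift the calls split the other way. When the median fall in log2 odds of methylation over partly methylated windows, -4.47, was taken out with limma, 0 of the 39 windows were called lower and 27 higher, against 6.63% lower and 30.1% higher over all windows. Of the 27, 22 had a WT level under 20%, and 5 were among the 16 called lower without centring. All 8 windows of Eomes, all 7 of Hand1, 6 of 12 at Tfap2c, 5 of 7 at Cdx2 and 1 of 5 at Elf5 were among them. Their measured log2 odds thus fell by less than the median taken out. Of the 39 windows 19 were under 10% in WT cells, against 18.3% of all windows. No share was computed for windows of like WT level, so 27 of 39 and 30.1% are not a like comparison. The centred calls used the adjusted p alone, without a minimum difference, so they are not the same kind of call as the 16. For the odds 0.5 was added to each count, which bounds how far a window near 0 can fall.

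Elf5 was measured in 7 windows of 1 kb, and the KO libraries were below the WT libraries in each, though 7 of its 49 cytosines stayed at or above 50% in KO cells. The window with most cytosines, chr2:103261001-103262000 with 20, had 82.1% and 82.7% in WT and 42.2% and 28.7% in KO libraries (adjusted p = 1.44e-09, edgeR). It was also the Elf5 window with the highest KO mean. Its KO mean of 35.4% lay above the middle 50% of the 35308 genome windows with WT levels of 80 to 90%, which ran from 16.4% to 29.0%. Among the 5 tested windows the highest WT level was at chr2:103294001-103295000, with 91.9% and 93.4% in WT and 34.2% and 23.2% in KO libraries (adjusted p = 1.08e-17, edgeR).

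KO levels of single cytosines varied over short distances within the Elf5 stretch. In the 254 bp read in that first window, KO means of single cytosines ran from 4.46% to 65.9% and WT means from 43.1% up to full methylation. In the 88 bp read in the last, KO means ran from 7.14% to 51.9% and WT means only from 89.2% to 95.1%. The 2 strands of 1 site there, chr2:103294894 and chr2:103294895, had KO means of 51.9% and 32.6%. What part counting error has in these ranges was not tested. In GRCm38.p6 the Elf5 sequence shown ends 26872 bases before the upper end of the gene, and Cat begins 2915 bases past that end. By those distances the window at chr2:103294001 lies beyond Elf5. The other 3 tested windows had WT means of 68.8% to 86.9% and KO means of 12.1% to 19.5%.

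The promoter-proximal DNA of the placed Elf5 start showed a deep loss, at low depth. Both CpG sites in capitals in the Elf5 sequence lie before the start. At chr2:103263993 the levels were 92.3% and 78.9% in WT and 15.0% and 14.3% in KO libraries. At chr2:103264029 they were 88.5% and 73.7% in WT and 10.5% and 0% in KO libraries. The 0% rests on 14 calls, which allows up to 21.4%, and the calls at both sites ran from 14 to 26 per library. The KO libraries were below the WT libraries at both sites, and their mean over both was 12.8% and 7.14% against 90.4% and 76.3%.

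Cdx2 combined an unmethylated core with a few methylated sites beside it. In its longest run of cytosines under 10% in WT cells, 134 cytosines over 1535 bp (chr5:148117181-148118715), 86 had no methylated call in any library, and the means were 0.686% and 0.527% in WT and 0.744% and 0.213% in KO libraries. The window with most cytosines, chr5:148118001-148119000 with 121, had 0.622% and 0.431% in WT and 0.532% and 0.183% in KO libraries. The groups overlapped there (adjusted p = 0.240, edgeR), and without KO replicate 2 the difference of -0.17 points became 0.00576. That window is unmethylated like most of its kind: of the 5844 genome windows with 80 or more cytosines 98.8% were under 10% in WT cells.

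Beyond the core the next measured cytosine, at chr5:148120936, stood at 60.3% in WT and 21.9% in KO cells. Among the 7 tested windows of Cdx2 the highest levels in both genotypes were at chr5:148123001-148124000, which held 3 cytosines with 27 to 47 calls per library. It had 91.5% and 77.8% in WT and 24.3% and 0% in KO libraries (adjusted p = 3.17e-09, edgeR), and the 0% of 32 calls allows up to 9.38%. With a coverage minimum of 10 calls neither of the 2 called Cdx2 windows could be tested.

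Eomes showed a step from low to higher levels. No cytosine was measured between chr9:118388759 and chr9:118389291, so how sharp the step is was not seen. Its 205 cytosines over 1860 bp at chr9:118386900-118388759 were under 10% in WT cells, with 0.479% and 0.286% in WT and 0.361% and 0.398% in KO libraries, so the groups overlapped. The next measured cytosine, at chr9:118389291, stood at 63.1% in WT and 28.2% in KO cells. The window with most cytosines, chr9:118388001-118389000 with 148, had 0.315% and 0.187% in WT and 0.181% and 0.282% in KO libraries (adjusted p = 0.827, edgeR). Its difference of -0.02 points turned to 0.0440 without WT replicate 1 and to 0.0313 without KO replicate 1.

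The start of Gm33408 lies in that run. Over the 51 measured cytosines of the sequence shown, 38 of which had no methylated call in any library, the levels were 0.267% and 0.147% in WT and 0.162% and 0.201% in KO libraries. The groups overlapped, and all were near 0 in DNA of 72% GC. The sequences of the other 2 starts of Gm33408, which share most of this DNA, had 0.314% and 0.212% in WT and 0.0600% and 0.0700% in KO libraries over 34 cytosines, without overlap.

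The only Eomes window called lower was chr9:118389001-118390000, just past the step, with 14 cytosines. It had 36.2% and 38.9% in WT and 9.94% and 11.7% in KO libraries (adjusted p = 7.04e-05, edgeR), and among the 8 tested windows it had the highest level in both genotypes. A single cytosine farther on, at chr9:118392110, was higher, with a mean of 75.2% in WT and 39.6% in KO cells. Its 14 cytosines ran from 9.13% to 63.1% in WT and from 0% to 28.2% in KO cells, and 1 of them was called by itself. With 20 or more calls required too few of its cytosines were left to test it. The other 6 tested windows had WT means of 0.895% to 5.26%. By the placed Gm33408 sequence and the length of Eomes in GRCm38.p6, those from chr9:118395001 on were read past the gene.

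Tfap2c had the longest unmethylated run of the 5 genes, beside a methylated part of its stretch. Its run of 269 cytosines over 2941 bp (chr2:172374351-172377291) had 1.29% and 1.19% in WT and 0.493% and 0.571% in KO libraries. The window with most cytosines, chr2:172376001-172377000 with 144, had 0.990% and 1.15% in WT and 0.349% and 0.313% in KO libraries. Here the KO libraries were below the WT libraries and the adjusted p was 0.000154 in edgeR, but the difference of -0.74 points is far under the 10 points of a call. With no minimum difference 9 of the 12 Tfap2c windows were called lower in place of 5.

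The methylated part lies partly inside the gene if all 12945 bases of Tfap2c fall in its stretch of 19 kb. That part began after a gap of 2277 bp without measured cytosines. The last cytosine before it, at chr2:172377333, had 3.85% in WT and 0% in KO cells, and the first after it, at chr2:172379610, had 93.8% in WT and 33.0% in KO cells. The window from there, chr2:172379001-172380000 with 19 cytosines, had the highest WT and KO levels of Tfap2c, 93.1% and 89.2% in WT and 37.2% and 30.5% in KO libraries (adjusted p = 4.43e-15, edgeR). The other 4 called windows, all farther along, had WT means of 60.4% to 90.8% and KO means of 6.56% to 30.8%. All 5 KO means but that of 6.56% lay within the middle 50% of genome windows of like WT level.

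Hand1 had low but widespread methylation. Only 27 cytosines in a row, over 258 bp at chr11:57641345-57641602, stayed under 10% in WT cells. The window with most cytosines, chr11:57641001-57642000 with 73, had 3.69% and 3.75% in WT and 5.01% and 1.85% in KO libraries, so the WT libraries lay between the KO libraries (adjusted p = 0.601, edgeR). The difference of -0.29 points became 0.240 with 20 or more calls and 1.28 without KO replicate 2. In the run of 27 cytosines the order was the same, with 1.57% and 1.83% in WT and 2.57% and 1.11% in KO libraries. Within that run KO replicate 1 rose most over the WT mean at chr11:57641601, by 14.3 points. The levels there were 0% and 2.22% in WT and 15.4% and 0% in KO libraries.

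Elsewhere in the Hand1 stretch the KO libraries were below the WT libraries in all 6 other windows. Outside the gene lie the windows at chr11:57640001, chr11:57641001, chr11:57646001 and chr11:57647001. This follows from the placed Gm32915 sequence and its distances to the ends of Hand1 in GRCm38.p6. The window with the highest WT and the highest KO mean, chr11:57640001-57641000, had 46.7% and 45.8% in WT and 14.9% and 9.51% in KO libraries (adjusted p = 1.42e-06, edgeR). The other 2 called windows had WT means of 22.9% and 20.3% and KO means of 7.58% and 5.78%, and the second, chr11:57647001-57648000, lost its call without WT replicate 1. Of the windows not called, chr11:57643001-57644000, singled out after its values were seen, had 18.0% and 18.1% in WT and 10.5% and 8.08% in KO libraries over 41 cytosines. Of the 8027 genome windows with 40 to 79 cytosines 89.9% were under 10% in WT cells, so this window was among the more methylated of that class.

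The sequence shown from the start of Gm32915, at the end of Hand1 with the higher coordinates, had the same moderate level. Its 6 measured cytosines had 16.8% and 14.3% in WT and 7.05% and 5.70% in KO libraries, from 33 to 79 calls each. All KO values lay below all WT values.

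**Figure D3:**
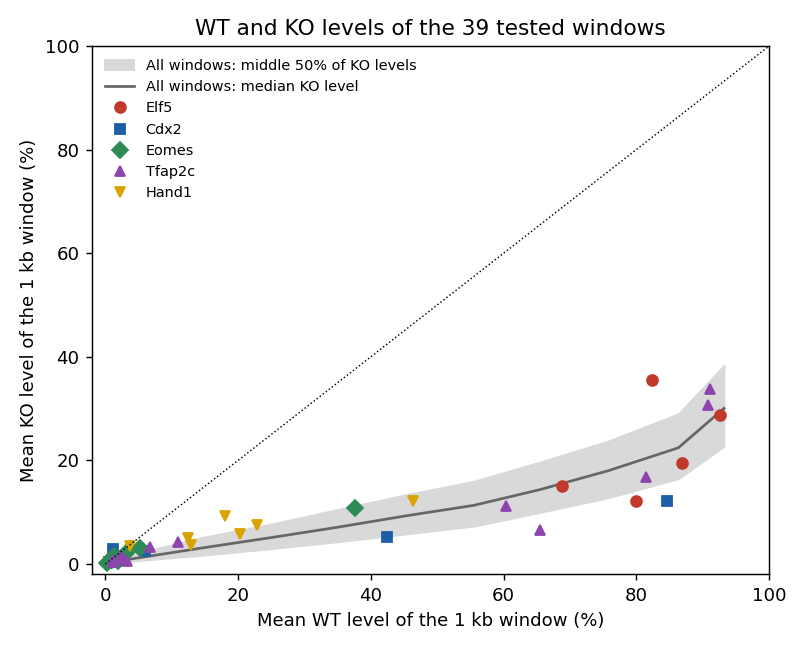
KO mean level against WT mean level (percent) of the tested 1 kb windows of the 5 genes, with genome windows of like WT level for scale. Of the 20 member windows at 10% or more in WT cells, 13 lie within the middle 50% of genome windows of like WT level, 3 above and 4 below.

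Set against genome windows of like WT level, the members mostly lay within the usual range. Among the 20 tested windows that reached 10% in WT cells, the KO mean lay within the middle 50% for 13, above for 3 and below for 4. The 3 above were 1 window each of Elf5, Eomes and Hand1, those at chr2:103261001, chr9:118389001 and chr11:57643001 described before. The 4 below were 2 at Cdx2 and 1 each at Elf5 and Tfap2c, and they held 3 to 6 cytosines each. This is a description without a test.

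Windows with more measured cytosines had lower median WT levels, in the members as in the genome. The number measured depends on the fragments read, and CpG sites of the windows themselves were not counted. Member windows with 3 to 9 cytosines had a median WT level of 65.4% (11 windows), those with 10 to 19 of 30.2% (10 windows), those with 20 to 39 of 6.01% (5 windows), those with 40 to 79 of 1.55% (10 windows) and those with 80 or more of 0.526% (3 windows). The corresponding genome medians were 86.0%, 78.9%, 9.04%, 0.538% and 0.304%.

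Other trophoblast genes were compared by their promoter sequences only, from a list of 18 genes. Of these, 10 could be placed with 11 starts: Gata2 and Gata3, GATA factors of the trophoblast, Tfap2a, Ets2, Esrrb, Sox2, Id2, Ascl2, Krt18 and Bmp4. Another 5 were not placed, Fgfr2, Gcm1, Plet1, Tpbpa and Krt8. No sequence was at hand for Tead4, Klf5 and Dlx3. The 2 starts of Gata2 were placed 4773 bp apart, the same distance as in the sequence table.

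All 11 placed starts were under 10% in WT cells, with WT means of 0.0842% to 9.12% and KO means of 0.0733% to 6.62%. The Elf5 start, at 83.4% in WT cells, was the only start above 10% among those placed for the members and the list. Placing needs many CpG sites in measured fragments, so the list says nothing of starts with few CpG sites. KO and WT libraries were fully separated, KO lower, at 3 of the 11 starts, 1 of Gata2, Ets2 and Krt18. Over all features, 90.8% of 1 kb windows and 44.6% of single cytosines had that order. No share was computed for starts or for features of like WT level. Ets2 had 0.198% and 0.147% in WT and 0.0815% and 0.111% in KO libraries, and so near 0 a few calls can set the order.

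At 2 starts both KO libraries were above both WT libraries, an order held by 0.968% of all 1 kb windows and 0.442% of all cytosines. Bmp4, a secreted signal that can drive stem cells to trophoblast in culture, had 2.50% in each WT library and 3.70% and 9.54% in KO libraries over 6 cytosines with 9 to 22 calls. Ascl2, an imprinted factor of the placenta, had 0.586% and 0.576% in WT and 0.611% and 0.639% in KO libraries. Neither difference was tested, and the Ascl2 levels are near 0, where a few calls can set the order.

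By mean absolute difference over the 4 libraries the start most like that of Elf5 was that of Tfap2a, another AP-2 factor, with a mean difference of 39.5 points. It had 8.01% and 10.2% in WT and 8.06% and 2.32% in KO libraries, so none of the list was close to Elf5.

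**Figure D4:**
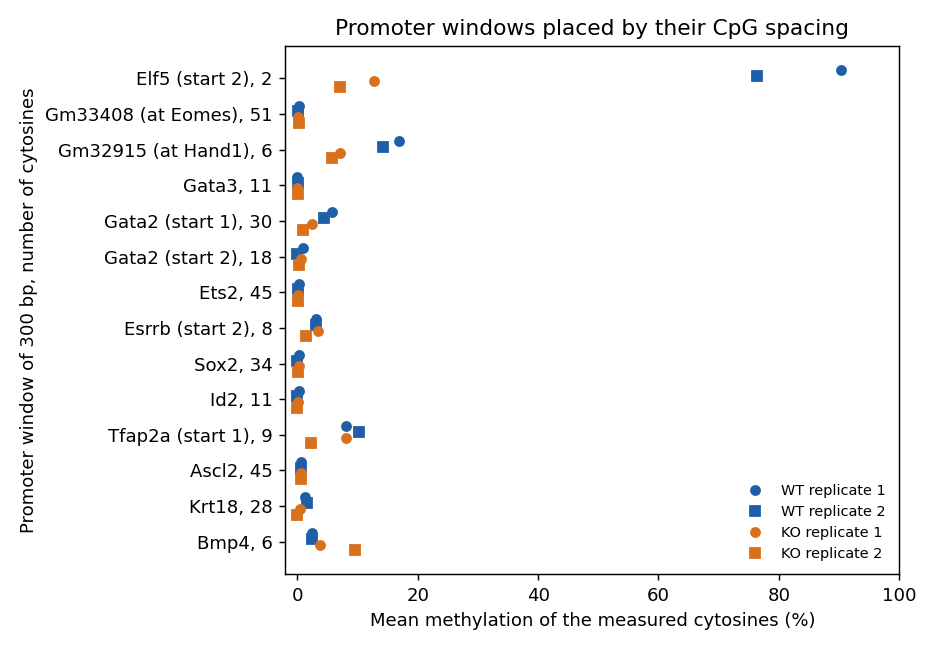
Methylation level (percent) of each placed promoter sequence, with 1 point per library for WT and KO. The Elf5 start has 90.4% and 76.3% in WT libraries and 12.8% and 7.14% in KO libraries, whereas the 11 starts of the list are under 10% on average in both genotypes.

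Motifs were searched on both strands of the promoter sequences by exact letters. The AP-2 motif GCCNNNGGC occurred once each in the Cdx2 and the Gm32915 sequence, and in 16.6% of 32817 promoters. The TEAD motif CATTCC occurred once, in the Elf5 start that was not placed, and in 14.7% of promoters. The ETS motif CCGGAAG, found in 8.86% of promoters, and the T-box motif TCACACCT, found in 1.27%, were in none of the sequences of members or of the 2 overlapping genes. The ETS motif contains the MspI site CCGG, which 52.8% of promoters hold. The Cdx2 sequence has no such site, and each Elf5 sequence has 1.

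The 2 strands of a CpG site were compared within each library, since methylation is mostly symmetric. Levels of the 2 cytosines of a site differed by a mean of 8.85 points in WT cells at Elf5 (18 pairs), 5.77 at Hand1 (74 pairs), 2.93 at Tfap2c (149 pairs) and 1.55 at Cdx2 (101 pairs) and Eomes (145 pairs). These are differences at single sites and do not give the error of a mean over many sites.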

How the data were processed

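Per the labels' protocols, 50 ng of genomic DNA of each library was digested with MspI for 3 hours, bisulfite converted, amplified and size selected to 150 to 500 bp. The authors deposited 1 table per library, with the position of each cytosine of a CpG site, its methylation as a percent, and whole counts of methylated and unmethylated calls. The deposited counts are not normalised and were used for all levels and tests. The submitters' processing notes name Bismark 0.10.1, Trim Galore and mm9. Settings and filters, PCR duplicates among them, are not given in the sources used. Calls were not counted by molecule, so counting limits cover counting error only.

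Cytosines of chromosomes 1 to 19, X and Y with 5 or more calls in all 4 libraries were kept. A cytosine's level is its methylated calls over all its calls, a gene's level is the mean over its cytosines, and a 1 kb window's level is its summed methylated calls over all calls. Windows with 3 or more cytosines, and single cytosines, were tested over the whole genome by quasi-likelihood in edgeR 4.0.16 (R 4.3.3). The model held library terms, the state of the call and its interaction with genotype. P-values were adjusted by the Benjamini-Hochberg method. A common dispersion was used. The test was tried on simulated data whose spread was taken from the WT pair alone. Gene means were compared by exact permutation, two-sided, in scipy 1.17.1.

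RefSeq promoter sequences were placed by CpG spacing. Cytosines on CpG sites counted 1 each, those off CpG sites minus 3, and a placement needed a score of 8 or more and at least 1.5 times the next best. These limits were chosen after seeing the data. Exons and introns were not analysed here, as no annotation of mm9 was used. The genes and the list of trophoblast genes were chosen with earlier results of these data known.

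Named in each stretch were the window with most cytosines, those with the highest WT and KO levels, and any called higher. Alternatives were coverage minimums of 10 and 20, limma 3.58.1 on logit methylation with and without centring on the library-wide shift, no minimum difference or 25 points, other window sizes and cytosine minimums, strands summed, very deep cytosines left out, pooled calls, each library left out, and the replicate number as a block.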

Additional observations from a re-analysis of the deposited data

How the results depend on the processing

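The gene differences kept their sign under every alternative run, and their range without 1 library was -61.5 to -52.2 points at Elf5, -2.63 to -1.55 at Cdx2, -1.35 to -1.32 at Eomes, -8.30 to -7.75 at Tfap2c and -10.3 to -7.93 at Hand1. The 16 member windows called lower became 25 with no minimum difference and 8 with 10 or more cytosines a window, where only 8 could be tested. With 10 and 20 calls 14 and 11 could be tested, and all of those kept the call. With 25 points 14 kept it. Without 1 library 15 to 16 remained called, and members called higher stayed at 0. Member cytosines called lower (117) became 71 with 20 calls and 70 to 117 without 1 library, and those called higher 0 to 1. Centring on the library-wide shift, with no minimum difference, gave 0 member windows lower and 27 higher, and 4 member cytosines lower and 1143 higher.

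Over the genome, windows called lower (124090) became 52558 with 20 calls, 31426 with 10 or more cytosines a window and 10299 with centring. Windows called higher (6) became 188 with no minimum difference, 0 with 25 points, 3 with 10 calls, 1 with 20 calls, 3 in windows of 2 kb, 1 with 10 or more cytosines, 46682 with centring and 1 to 14 without 1 library. Cytosines called lower (855811) became 358915 with 20 calls and 79388 with centring. Cytosines called higher (36) became 10 with 25 points, 20 with 20 calls, 355 with limma, 1550519 with centring and 1 to 107 without 1 library. Fewer features could be tested at higher minimums, and the counts with centring had no minimum difference. The cause of the other changes was not tested.

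Near-0 windows changed sign. With single libraries left out the difference ran from -0.34 to 0.00576 points at chr5:148118001 (Cdx2, positive without KO replicate 2). It ran from -0.0833 to 0.0440 at chr9:118388001 (Eomes, positive also at 0.0313 when KO replicate 1 was left out). At chr11:57641001 (Hand1) it ran from -1.87 to 1.28 (positive without KO replicate 2) and was 0.240 with 20 calls. None of the positive differences had an adjusted p under 0.05 in edgeR. Without KO replicate 1 the values of -0.34 and -1.87 had adjusted p of 0.0274 and 0.00636, and their size is under the 10 points of a call.

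The labels do not say whether WT and KO libraries of the same replicate number were prepared together. Over 155252 windows the deviations of same-numbered libraries had a correlation of -0.00579, which does not settle it. With the replicate number as a block, 16 member windows and 112 member cytosines were called lower, and 123935 windows over the genome.

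Depth of 21 to 25 calls per cytosine limits single cytosines, and shallow sites such as the 2 at the Elf5 start cannot show small differences.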
